A study of Homo sapiens with 13 samples.

Results

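The nuclear-encoded subunits of respiratory chain complexes I to IV were followed through SMARCA2/SMARCA4 inhibition in both small cell lung cancer (SCLC) lines of the study. Members were taken by gene symbol alone, as the numbered *NDUFA*, *NDUFB*, *NDUFC*, *NDUFS* and *NDUFV* genes, the 4 *SDH* genes, and the *UQCR* and *COX* genes that encode structural subunits. This gave 63 of the 56831 genes in the tables, with 37 in complex I, 4 in complex II, 8 in complex III and 14 in complex IV. H82 is an established SCLC line of the SCLC-N subtype, named for *NEUROD1*, and H146 is an established line of the SCLC-A subtype. All samples carry the WT genotype label and were grown in RPMI1640 medium with serum. The RNA libraries were 3 untreated and 3 treated for H82, and 3 untreated and 4 treated for H146, where treatment was FHD-286 at 100 nM for 14 days. FHD-286 is a dual allosteric inhibitor of the SMARCA2 and SMARCA4 ATPases, the motors of the SWI/SNF chromatin remodelling complexes. It blocks the proteins and not their transcripts, so the transcripts of its targets do not check the treatment labels. The labels do not say whether libraries of a group came from separate cultures, and *p* values measure the spread between these libraries only, which may be technical.

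The respiratory chain sits in the inner mitochondrial membrane. Complex I takes electrons from NADH and complex II takes them from succinate, complex III passes them from ubiquinol to cytochrome c, and complex IV passes them to oxygen, while complexes I, III and IV pump protons that drive ATP synthesis by complex V. Most subunits are encoded in the nucleus, made in the cytosol and imported, whereas the catalytic core of complexes I, III and IV also needs subunits encoded in mitochondrial DNA. The promoters of many nuclear subunit genes are known to be bound by NRF1, the ETS factor GABPA and YY1, and several complex IV subunits exist as ubiquitous and tissue-restricted isoforms.

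The bases upstream of the transcription start are shown for 6 members on which the results turn, from RefSeq promoters on GRCh38.p14, 5′ to 3′ on the strand of the gene. *NDUFB7*, *SDHB*, *UQCRQ* and *COX8A* had the largest rises of complexes I to IV in H82, and *COX5B* and *COX6A1* moved in opposite directions in the 2 lines. Capitals mark exact matches, on either strand, to the letters GCATGCGC of the NRF1 core or CCGGAAG of an ETS core that lie wholly in the window. The windows are chr19:14572067-14572316 (minus strand) for *NDUFB7*, chr1:17054033-17054282 (minus strand) for *SDHB*, chr5:132866392-132866641 (plus strand) for *UQCRQ*, chr11:63974370-63974619 (plus strand) for *COX8A*, chr2:97645812-97646061 (plus strand) for *COX5B* and chr12:120437863-120438112 (plus strand) for *COX6A1*.
NDUFB7: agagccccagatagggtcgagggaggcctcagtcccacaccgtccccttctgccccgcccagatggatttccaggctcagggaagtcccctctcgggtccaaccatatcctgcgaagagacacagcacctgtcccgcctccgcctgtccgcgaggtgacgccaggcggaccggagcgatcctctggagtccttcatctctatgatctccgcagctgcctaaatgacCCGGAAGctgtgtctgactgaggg
SDHB: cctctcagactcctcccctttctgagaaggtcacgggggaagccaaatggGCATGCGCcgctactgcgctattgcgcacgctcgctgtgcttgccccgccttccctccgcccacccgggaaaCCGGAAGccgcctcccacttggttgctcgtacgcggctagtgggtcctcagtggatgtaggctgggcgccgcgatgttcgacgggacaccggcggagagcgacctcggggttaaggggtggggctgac
UQCRQ: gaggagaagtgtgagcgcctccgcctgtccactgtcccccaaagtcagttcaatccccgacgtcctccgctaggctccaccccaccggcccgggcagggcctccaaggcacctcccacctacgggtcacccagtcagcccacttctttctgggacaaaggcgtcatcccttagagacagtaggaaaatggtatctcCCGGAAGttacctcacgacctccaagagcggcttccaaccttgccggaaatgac
COX8A: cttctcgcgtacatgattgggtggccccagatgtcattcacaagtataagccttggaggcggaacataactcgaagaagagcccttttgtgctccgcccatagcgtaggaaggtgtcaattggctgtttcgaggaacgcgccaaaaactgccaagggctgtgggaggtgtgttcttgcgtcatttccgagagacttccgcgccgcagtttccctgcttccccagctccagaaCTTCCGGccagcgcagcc
COX5B: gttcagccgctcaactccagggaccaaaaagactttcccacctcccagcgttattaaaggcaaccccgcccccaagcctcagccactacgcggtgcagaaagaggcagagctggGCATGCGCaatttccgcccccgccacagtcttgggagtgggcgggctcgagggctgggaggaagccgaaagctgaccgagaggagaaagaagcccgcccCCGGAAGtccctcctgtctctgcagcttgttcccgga
COX6A1: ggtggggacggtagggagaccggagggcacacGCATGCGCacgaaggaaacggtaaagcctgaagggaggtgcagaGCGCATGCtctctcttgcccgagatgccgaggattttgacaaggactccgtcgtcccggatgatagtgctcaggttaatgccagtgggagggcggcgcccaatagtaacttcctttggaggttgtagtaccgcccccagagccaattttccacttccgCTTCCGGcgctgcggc

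RefSeq promoters, which span each gene's start, were found for 52 of the 63 members. The NRF1 core was in a promoter of 10 of these 52 members (19.2%), against 3.68% of the 27305 genes in the promoter table and 3.05% of its 35116 promoters. The ETS core was in 15 (28.8%), against 12.2% of genes and 10.3% of promoters. The YY1 core, AAGATGGCG on either strand, was in 8 (15.4%), against 2.14% of genes and 1.75% of promoters. In *SDHB* all 3 motifs were present, and its YY1 match lay downstream of the start. Matches on the 2 strands can overlap and were counted once per gene, and a match describes sequence only. In treated H82, 7 of the 10 tested members with the NRF1 core were called higher and 31 of the 41 without it, and the median log2 fold changes of those groups were 1.21 and 1.07. For the ETS core the counts were 12 of 15 with it and 26 of 36 without, and for the YY1 core 5 of 8 and 33 of 43.

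Expression values are TPM, which the authors made per library, so levels can be compared between genes per unit of length. A gene was tested in a line where at least 3 libraries reached 1 TPM, with limma on log2(TPM + 1) and *p* values adjusted by the Benjamini-Hochberg method over all genes tested, at a two-sided threshold of 0.05. Mitochondrially encoded genes took 22.8% ± 1.19 (SD, n = 3) of all TPM in untreated H82 and 14% ± 1.45 (n = 3) in treated H82, and 8.42% ± 0.746 (n = 3) and 7.2% ± 3.16 (n = 4) in H146. Of the 5 neuroendocrine markers, 5 reached 1 TPM in every H82 library and 4 in every H146 library, and their sum was 610 to 660 TPM in untreated and 178 to 577 TPM in treated H82, and 1377 to 1679 and 983 to 1244 TPM in H146. In H82 *CHGA*, *SYP* and *NEUROD1* fell (log2 fold changes -2.36, -2.13 and -1.53, adjusted *p* = 0.00574, 0.000441 and 0.00418, limma) and *INSM1* rose (2.19, adjusted *p* = 0.0498, limma). *NCAM1* was not called there (0.26, adjusted *p* = 0.186, limma). In H146 *INSM1* made up most of the sum and fell from a mean of 1230 to 870 TPM (-0.50, adjusted *p* = 0.0219, limma). *CHGA*, *SYP* and *NCAM1* were not called in H146 (-0.12, -0.26 and 0.12, adjusted *p* = 0.559, 0.15 and 0.645, limma), and *NEUROD1* was below the filter. The T cell marker *CD3E* was at 0 in all H82 libraries. *PTPRC*, the other leukocyte marker, was at 0.402 TPM or less in H82 and at 3.29 to 6.75 TPM in H146. Genes at 1 TPM or more numbered 21227 to 21772 in untreated and 15554 to 16633 in treated H82, with no overlap, and 17476 to 17965 and 18778 to 19309 in H146. Treated H82 replicate 2 stood apart in *INSM1*, a neuroendocrine factor, at 296 TPM against 32.1 and 33.9 in the other treated libraries, and in the epithelial markers *EPCAM* (32.8 against 3.08 and 1.11 TPM) and *KRT8* (23.9 against 6.67 and 3.02 TPM). The summed epithelial markers were at 1.39 to 3.16 TPM in untreated and 7.9 to 63 TPM in treated H82, and at 1294 to 1331 and 450 to 534 TPM in H146. The summed mesenchymal markers were at 14.9 to 17.6 and 54 to 57.4 TPM in H82 and at 0.919 to 1.33 and 2.95 to 4.43 TPM in H146, the fibroblast markers at 0.406 to 0.553 and 2.54 to 25.7 TPM in H82 and 6.38 to 8.4 and 11.8 to 17.5 TPM in H146, and the leukocyte markers at 6.83 TPM or less in every library. The part of these markers and of the number of genes in the results was not tested. The members' H82 counts are also given without treated replicate 2, in all and by complex, and in all without treated replicate 1. Over all genes tested, treated H82 replicate 1 differed most from the others. The SD of its log2 differences was 0.79 from replicate 2 and 0.73 from replicate 3, against 0.50 between replicates 2 and 3. These are bulk samples, so fewer cells with a transcript and less RNA per cell cannot be told apart.

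The members together took 0.651% ± 0.0372 (SD, n = 3) of all TPM in untreated H82 and 1.65% ± 0.233 (n = 3) in treated H82, which is 2.53 times as much. In H146 the share was 1.02% ± 0.057 (n = 3) without and 1.04% ± 0.0572 (n = 4) with treatment. Untreated H82 thus held the lowest share, and treated H82 the highest, with no overlap between the groups of that line (0.608% to 0.677% and 1.42% to 1.88%). With mitochondrially encoded genes left out of the total, the share was 0.842% and 1.91% in H82 and 1.11% and 1.12% in H146, so the treated share was 2.27 times the untreated one in H82 on that scale.

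Complex I subunits summed to 3709 ± 261 TPM (SD, n = 3) in untreated and 9729 ± 1838 TPM (n = 3) in treated H82. Complex II went from 221 ± 15.5 to 360 ± 90.5 TPM in mean, and its lowest treated library, at 255 TPM, was close to the highest untreated one, at 237 TPM. Complex III went from 1112 ± 42.6 to 2593 ± 248 TPM and complex IV from 1464 ± 84.4 to 3776 ± 390 TPM. In each complex every treated H82 library was above every untreated one. In H146 the sums of complexes I and II were 1.13 and 1.14 times and those of complexes III and IV 0.911 and 0.872 times the untreated mean. For complex IV every treated H146 library (2536 to 2778 TPM) was below every untreated one (2876 to 3188 TPM). For complex II every treated H146 library (233 to 252 TPM) was above every untreated one (207 to 214 TPM). The groups overlapped for complexes I and III. These sums were not tested.

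**Figure D1:**
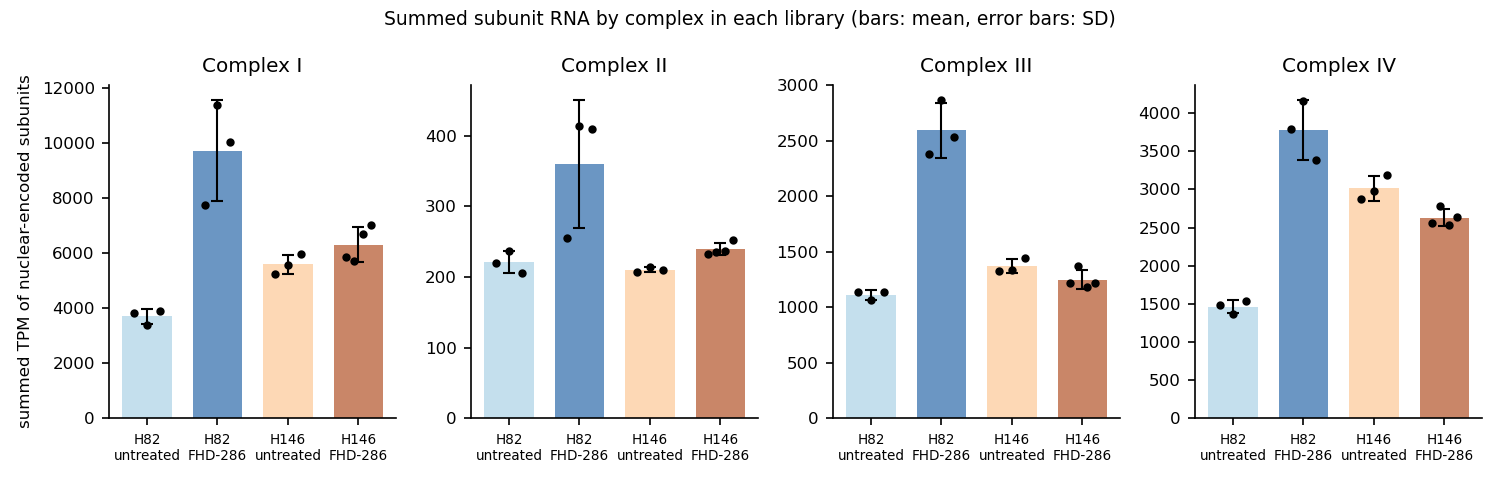
Summed TPM of the nuclear-encoded subunits of complexes I to IV (y axis, from 0) in each library (points) by line and treatment, with bars at the group mean and error bars of 1 SD, n = 3 per group and n = 4 for treated H146. Treated H82 lies above untreated H82 in each complex, and complex IV in treated H146 (2536 to 2778 TPM) lies below untreated H146 (2876 to 3188 TPM). Complex II in treated H146 (233 to 252 TPM) lies above untreated H146 (207 to 214 TPM).

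The question for each line was how the transcripts of these subunits changed under SMARCA2/SMARCA4 inhibition. In H82, 62 of the 63 members passed the filter on low values, with *COX6A2*, the muscle isoform of a complex IV subunit, listed at 0 in all 6 libraries. Of these 62, 45 rose and 5 fell, where 13.1% of all 19770 genes tested rose and 45.5% fell. The median log2 fold change of the members was 1.07, against -0.56 over all genes tested. Of the 52 members with a mean of at least 20 TPM over both groups, 44 rose and 0 fell, at a median of 1.19 (limma, 0 lower also at an unadjusted *p* under 0.05). A mean that takes in the treated libraries depends in part on the response. *UQCRQ*, *COX6A1*, *UQCR11* and *NDUFB2*, with untreated means of 17.4, 17.7, 18.1 and 18.9 TPM, reached 20 TPM through their treated libraries. All 6515 genes at that level had a median of -0.10, with 1351 higher and 1881 lower. Without treated replicate 2, 43 of all 62 members rose and 5 fell, against 9.03% and 42.6% of all genes, and the members' median was 0.93. That gave 24 higher and 3 lower in complex I, 1 higher in complex II and 8 in complex III. Complex IV had 10 higher and 2 lower. Without treated replicate 1, 48 members rose and 5 fell, against 18.4% and 52.2% of all genes, and the members' median was 1.23. All treated libraries were above all untreated ones for 46 members and below them for 8, against 16.4% and 51.4% of all genes tested. Across members, the H82 fold change had a Spearman correlation of -0.39 with exon length (n = 62 genes, which share the same libraries), and its part in the rise was not tested.

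The scaling of the libraries moved the medians of all genes and of the members. Under median-of-ratios scaling the median over all genes in H82 moved from -0.56 to -0.11, with 24.9% of genes higher and 31.8% lower, and that of the members from 1.07 to 1.55. Under quantile scaling they moved in opposite directions, to 0.01 over all genes and 0.93 over the members, with 26.6% of genes higher and 24.6% lower. Relative to the median of all genes, the members' median lay 1.63 higher as reported and between 0.92 and 1.79 higher over the 16 alternatives. The number of members that rose ranged from 40 to 51, and 39 of the 45 rose under every alternative. Of the 5 that fell, 1 (*COX4I2*) did so under every alternative.

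**Figure D2:**
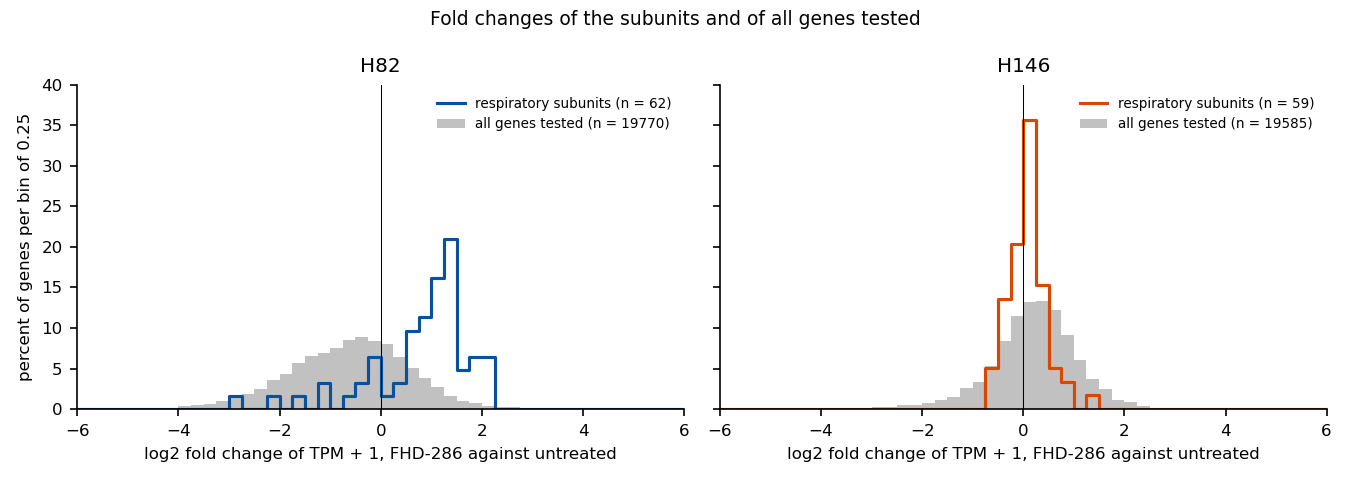
Log2 fold change of TPM + 1 under FHD-286 (x axis) against the percent of genes in each bin of 0.25 (y axis) for all genes tested (grey bars) and for the respiratory subunits (line), H82 left and H146 right. The subunits of H82 centre at a median of 1.07 while all genes centre at -0.56, and in H146 the medians are 0.10 and 0.25.

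Complex I held 26 of the members that rose in H82, of 37 tested, and 3 that fell. Its largest rise was *NDUFB7*, an accessory subunit of the membrane arm, at 322, 214 and 310 TPM in the untreated and 1224, 1203 and 1093 TPM in the treated libraries. The groups were far apart, and the mean went from 282 ± 59.2 to 1173 ± 70.3 TPM (SD, n = 3 each, log2 fold change 2.08 ± 0.21 SE, adjusted *p* = 0.000342, limma). *NDUFB9*, another accessory subunit of the membrane arm, was at 44.9, 36.2 and 41.5 TPM without and 163, 184 and 157 TPM with treatment (log2 fold change 2.02 ± 0.14 SE, adjusted *p* = 0.000142, limma). *NDUFS5*, an accessory subunit of the intermembrane side, had the highest level of all members in each of the 4 groups and rose from 1178 ± 95.2 to 3119 ± 784 TPM (n = 3 each, log2 fold change 1.37, adjusted *p* = 0.00417, limma). Accessory subunits of this kind do not carry electrons but are needed to assemble and hold the complex.

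The core subunits of complex I did not move as one. *NDUFS3*, *NDUFS8* and *NDUFV1*, the last of which holds the NADH and flavin site, rose in H82, with log2 fold changes of 0.88, 1.06 and 0.66. *NDUFS1*, the largest subunit of the complex and a carrier of iron-sulfur clusters, was at 46.9, 53.2 and 42.6 TPM without and 27.1, 41.4 and 41.6 TPM with treatment and did not pass the test (log2 fold change -0.38 ± 0.20 SE, adjusted *p* = 0.144, limma). Its libraries were nonetheless all lower with treatment. *NDUFS7*, another iron-sulfur subunit, stayed under 6 TPM in every H82 library, and 51.5% of its exon bases lie under other genes on the opposite strand.

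*NDUFV2*, an iron-sulfur subunit next to the NADH site, was the largest fall of complex I in H82. It was at 3.82, 4.78 and 3.7 TPM in the untreated and 0.837, 0.563 and 0.282 TPM in the treated libraries (log2 fold change -1.72 ± 0.22 SE, adjusted *p* = 0.000776, limma). Its levels were low in both groups for a core subunit of an abundant complex. The pseudogene *NDUFV2P1* was at 4.23, 9.72 and 3.16 TPM in untreated and 14.9, 35 and 17.2 TPM in treated H82, opposite in direction to the gene it is named after, and 28.4% of *NDUFV2* exon bases are shared with another gene on the same strand. Reads were counted with STAR at default settings, and how those that match both were treated is not spelled out, so the value of *NDUFV2* is uncertain.

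The other falls of complex I in H82 were *NDUFA13*, from 4.5 ± 0.267 to 1.53 ± 0.625 TPM, and *NDUFA7*, from 3.46 ± 0.184 to 1.19 ± 0.461 TPM (SD, n = 3 each, log2 fold changes -1.15 and -1.05, adjusted *p* = 0.00508 and 0.00563, limma). Both are accessory subunits, and both were under 5 TPM in every H82 library. They share 21% and 32.5% of their exon bases with other genes on the same strand, *YJEFN3* among those overlapping *NDUFA13* and *RPS28* among those overlapping *NDUFA7*. All 5 members that fell in H82 had untreated means under 20 TPM. In all, 33 members share some exon bases with another gene, of which 21 of 32 tested rose and 3 fell in H82, while 24 of the 30 members without such overlap rose and 2 fell.

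By position in complex I, 7 of the 10 subunits of the NADH-oxidising module rose and 2 fell, 3 of the 5 subunits of the ubiquinone-binding module rose, and 15 of the 21 remaining subunits rose and 1 fell. Their median log2 fold changes were 0.71, 0.88 and 1.04. *NDUFA4*, named for complex I but now known as a subunit of complex IV, rose from 90.1 ± 4.56 to 229 ± 46.5 TPM (SD, n = 3 each, log2 fold change 1.32, adjusted *p* = 0.000942, limma).

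**Figure D3:**
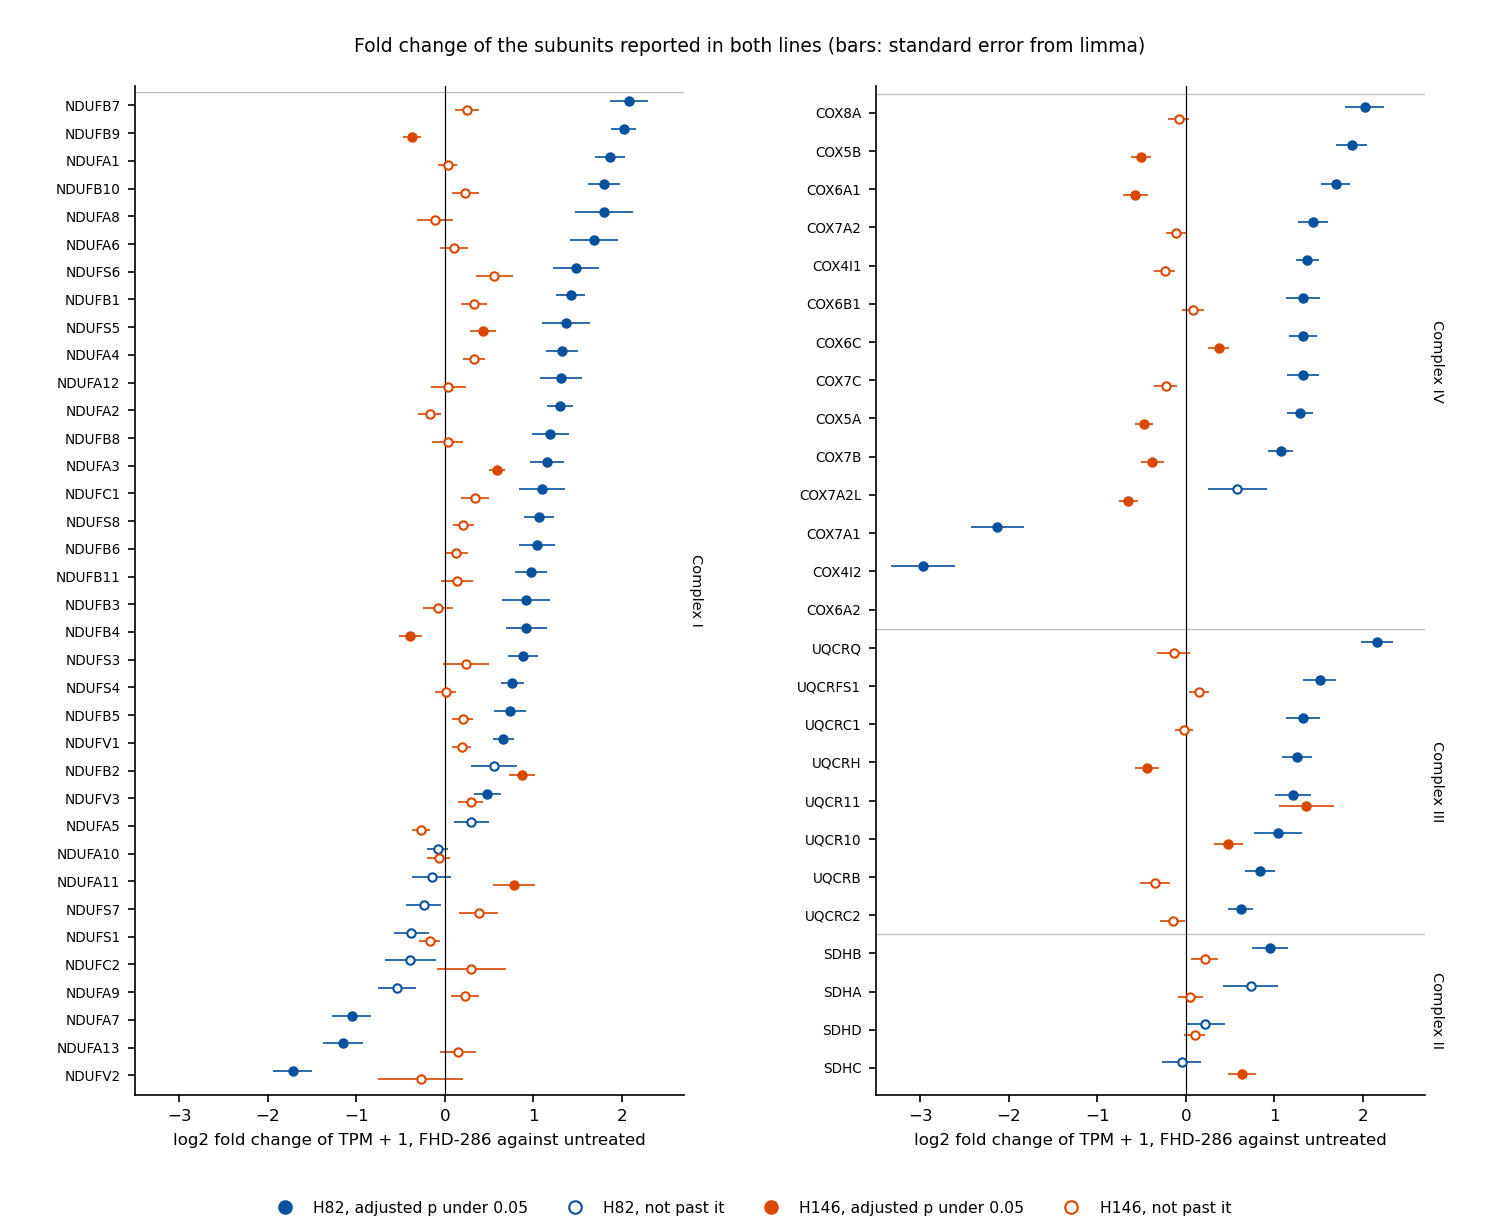
Log2 fold change of TPM + 1 (x axis) of 62 subunits under FHD-286 in H82 (blue) and H146 (orange), with complex I left and complexes IV, III and II right, error bars of 1 SE from limma, and filled points for an adjusted *p* under 0.05. Most H82 points lie between 0.5 and 2.1 and most H146 points near 0, and subunits with no point were below the filter in that line.

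In complex II, 1 of 4 subunits rose in H82. *SDHB*, the iron-sulfur subunit, was at 119, 118 and 107 TPM without and 167, 255 and 259 TPM with treatment (log2 fold change 0.95 ± 0.20 SE, adjusted *p* = 0.00582, limma). The groups did not overlap, although treated replicate 1 was nearest to the untreated libraries. *SDHA*, the flavoprotein that oxidises succinate, was at 26.3, 25.5 and 25.5 TPM in the untreated libraries, and at 25.6 TPM in treated replicate 1 but 59.7 and 53.2 TPM in the other treated libraries (log2 fold change 0.73 ± 0.31 SE, adjusted *p* = 0.0774, limma). Without treated replicate 1 its log2 fold change was 1.10 (adjusted *p* = 0.000238, limma), so this library decides the call. The *SDHA* pseudogenes, 3 of which are listed, summed to 98.9 to 122 TPM in untreated and 23.1 to 33 TPM in treated H82, above *SDHA* itself in the untreated libraries, and the same limit holds. *SDHC* and *SDHD*, the membrane anchors, had log2 fold changes of -0.05 and 0.22 and did not pass the test.

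Complex III was the complex in which all members rose in H82, with 8 of 8 and log2 fold changes of 0.62 to 2.16. *UQCRQ*, the ubiquinone-binding accessory subunit, had the largest rise of all 62 members, from 16.9, 16.4 and 18.9 TPM to 82.2, 97.6 and 66 TPM (log2 fold change 2.16 ± 0.18 SE, adjusted *p* = 0.000197, limma). Its 3 treated libraries were all far above the untreated ones. *UQCRFS1*, the Rieske iron-sulfur protein, rose from 34.9 ± 2.53 to 103 ± 23 TPM and *UQCRC1*, a core protein, from 148 ± 17.8 to 374 ± 72.5 TPM (SD, n = 3 each, log2 fold changes 1.51 and 1.32, adjusted *p* = 0.000796 and 0.00135, limma). *UQCRH*, the hinge protein that docks cytochrome c1, was the second most abundant member and rose from 637 ± 19.4 to 1518 ± 69.2 TPM (log2 fold change 1.25, adjusted *p* = 0.000945, limma).

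In complex IV, 10 of 13 subunits tested rose in H82 and 2 fell. *COX8A*, a small transmembrane subunit, was at 37.8, 30.2 and 30.3 TPM without and 121, 183 and 111 TPM with treatment (log2 fold change 2.02 ± 0.22 SE, adjusted *p* = 0.000429, limma). *COX8A* shares 35.4% of its exon bases with another gene on the same strand. *COX5B*, a subunit on the matrix side, went from 172, 137 and 148 TPM to 633, 574 and 471 TPM (log2 fold change 1.87 ± 0.17 SE, adjusted *p* = 0.000285, limma). *COX5A* rose from 251 ± 13.8 to 617 ± 45.7 TPM and *COX4I1*, the ubiquitous form of the regulatory subunit that binds ATP, from 130 ± 9.72 to 336 ± 13.2 TPM (SD, n = 3 each, log2 fold changes 1.29 and 1.37, adjusted *p* = 0.000512 and 0.000326, limma). In these 4 genes the groups were clearly separate.

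The isoforms of complex IV subunits split in H82. *COX4I2*, a form of subunit 4 known to be raised by low oxygen and in lung, was at 19.1, 17.2 and 18.3 TPM in the untreated and 0.517, 3.2 and 1.29 TPM in the treated libraries (log2 fold change -2.97 ± 0.36 SE, adjusted *p* = 0.000666, limma), the largest fall of all members. *COX7A1*, the heart and muscle form of subunit 7a, was at 6.1, 3.35 and 7.33 TPM without and 0.356, 0.276 and 0.761 TPM with treatment (log2 fold change -2.13 ± 0.30 SE, adjusted *p* = 0.00105, limma). The ubiquitous partners rose over the same libraries, *COX4I1* as above and *COX7A2* from 120 ± 2.4 to 329 ± 62.6 TPM (SD, n = 3 each, log2 fold change 1.43, adjusted *p* = 0.000654, limma). *COX6A1*, the ubiquitous form of subunit 6a, rose from 20.3, 16.8 and 16.1 TPM to 54, 69.1 and 55.5 TPM (log2 fold change 1.69 ± 0.16 SE, adjusted *p* = 0.000314, limma).

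*COX7A2L*, known for its role in joining complexes III and IV into supercomplexes, was at 96.4, 97 and 102 TPM without treatment and at 261 TPM in treated replicate 1 but 114 and 109 TPM in the other treated H82 libraries. All treated libraries were higher, yet the spread left it short of the threshold (log2 fold change 0.58 ± 0.33 SE, adjusted *p* = 0.169, limma). In treated replicate 1, *COX7A2L* was the highest and *SDHA* the lowest of the treated libraries.

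**Figure D4:**
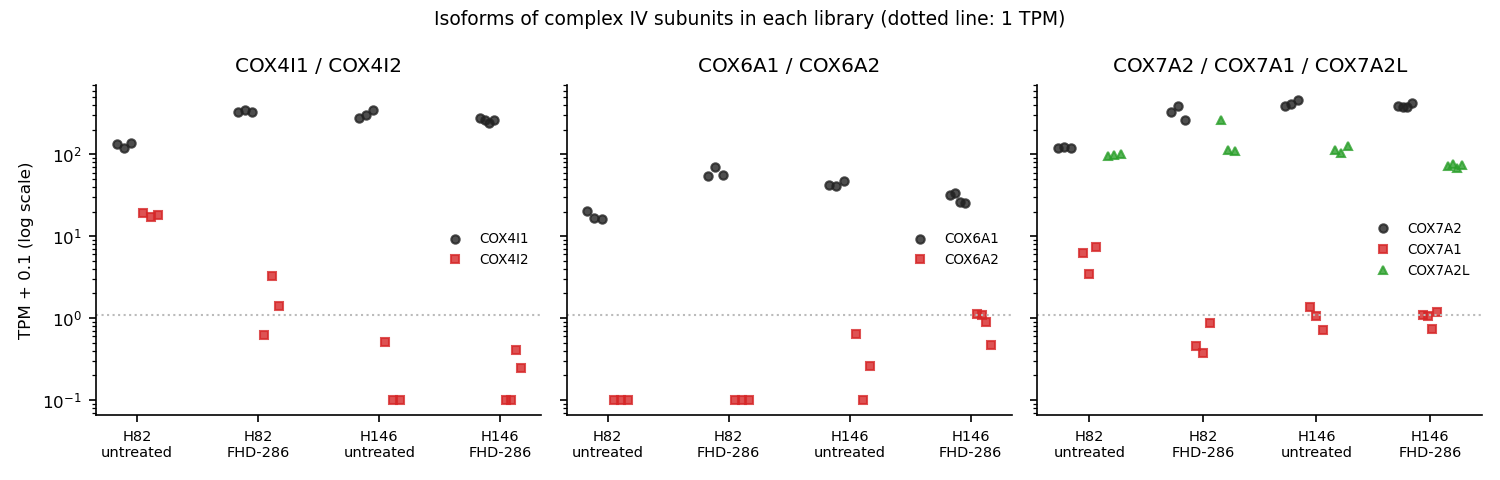
TPM + 0.1 (y axis, log scale) of complex IV subunit isoforms in each library (points) by line and treatment, with a dotted line at 1 TPM. *COX4I2* and *COX7A1* go from 17.2 to 19.1 and 3.35 to 7.33 TPM in untreated H82 to at most 3.2 and 0.761 TPM in treated H82, while *COX4I1*, *COX6A1* and *COX7A2* are higher with treatment.

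In H146, 59 members passed the filter, since *NDUFA7*, *COX4I2*, *COX6A2* and *COX7A1* did not reach 1 TPM in enough libraries. Of the 59, 8 rose and 8 fell, where 32.5% of all 19585 genes tested rose and 15.5% fell. The median log2 fold change of the members was 0.10, against 0.25 over all genes tested. Of the 49 members with a mean of at least 20 TPM over both groups, 5 rose and 8 fell, at a median of 0.04. *SDHC*, with an untreated mean of 15.4 TPM, reached 20 TPM through its treated libraries. All 7264 genes at that level had a median of 0.15, with 2249 higher and 1312 lower. All treated libraries were above all untreated ones for 9 members and below them for 10, against 35.7% and 17.3% of all genes tested.

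The H146 counts depended on scaling more than those of H82. Under median-of-ratios scaling 3 members rose and 19 fell, with the median of all genes moved from 0.25 to -0.03 and 21% of genes higher and 25.4% lower. Of the 8 that rose and the 8 that fell, 3 and 3 did so under each of the 17 alternatives. The members' median lay 0.15 below that of all genes as reported (-0.15) and between -0.20 and 0.02 from it over the 17 alternatives. By complex, 4 of 36 complex I subunits rose and 2 fell, 1 of 4 complex II subunits rose, 2 of 8 complex III subunits rose and 1 fell, and 1 of 11 complex IV subunits rose and 5 fell. The median log2 fold change of complex IV was -0.24, and it stayed below 0 under all 17 alternatives (-0.56 to -0.16) with 3 to 9 subunits lower. For complex I the median was 0.17 and turned to -0.14 under median-of-ratios scaling and -0.02 with centring by length.

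The falls of complex IV in H146 were in *COX7A2L*, *COX6A1*, *COX5B*, *COX5A* and *COX7B*. *COX7A2L* was at 114, 104 and 127 TPM in the untreated and 71.4, 77, 68.6 and 74.2 TPM in the treated libraries (log2 fold change -0.65 ± 0.11 SE, adjusted *p* = 0.00214, limma). *COX5B* was at 451, 440 and 530 TPM without and 344, 329, 319 and 335 TPM with treatment (log2 fold change -0.51 ± 0.11 SE, adjusted *p* = 0.00624, limma). *COX5A* went from 302 ± 25.2 (SD, n = 3) to 217 ± 7.58 TPM (n = 4, log2 fold change -0.47, adjusted *p* = 0.00691, limma). None of these groups overlapped, and *COX5A*, *COX5B* and *COX7A2L* fell under every alternative run.

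*COX6A1* was at 42, 41.3 and 47.4 TPM in untreated and 32, 33.3, 26.4 and 25.2 TPM in treated H146 (log2 fold change -0.57 ± 0.14 SE, adjusted *p* = 0.0102, limma). It has 7 named pseudogenes in the annotation, and the 2 of them in the table summed to 13.5 to 18.6 TPM without and 13.3 to 17.2 TPM with treatment. *COX6C*, a small subunit with 17 named pseudogenes, was the rise of complex IV, from 114 ± 12 (SD, n = 3) to 148 ± 11.4 TPM (n = 4, log2 fold change 0.37, adjusted *p* = 0.0307, limma). That call was lost without untreated replicate 1 or 2 or treated replicate 1, 3 or 4 (adjusted *p* = 0.0621 to 0.128, limma). *COX4I1* was at 278, 306 and 347 TPM without and 276, 265, 243 and 263 TPM with treatment, all lower, and did not pass the test (log2 fold change -0.24 ± 0.12 SE, adjusted *p* = 0.114, limma). *COX7A2* and *COX8A* had log2 fold changes of -0.11 and -0.08 and did not pass it either.

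In complex III of H146, *UQCR11*, a small accessory subunit, had the largest rise of all members, from 2.24, 2.9 and 2.84 TPM to 8.53, 4.16, 11.7 and 11.4 TPM (log2 fold change 1.36 ± 0.31 SE, adjusted *p* = 0.00779, limma). Its exons share 11% of their bases with another gene on the same strand, and its level stayed below that of H82 in every library. *UQCR10*, another small accessory subunit, rose too (log2 fold change 0.48, adjusted *p* = 0.036, limma). *UQCRH* fell, from 604, 595 and 707 TPM to 486, 562, 413 and 423 TPM (log2 fold change -0.44 ± 0.14 SE, adjusted *p* = 0.0339, limma), a call lost when any 1 library other than treated replicate 2 was left out (adjusted *p* = 0.0531 to 0.127, limma). *UQCRC1* and *UQCRFS1* had log2 fold changes of -0.02 and 0.15, and *UQCRQ*, the largest rise in H82, was at 27.1, 28.9 and 24.1 TPM without and 20.3, 19.2, 31.3 and 27.6 TPM with treatment (log2 fold change -0.14 ± 0.19 SE, adjusted *p* = 0.568, limma).

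In complexes I and II of H146 most subunits were not called (30 of 36 and 3 of 4). *NDUFA11*, at an untreated mean of 1.04 TPM, *NDUFA3* and *NDUFS5* rose (log2 fold changes 0.78, 0.59 and 0.43, adjusted *p* = 0.0276, 0.00151 and 0.0451, limma). *NDUFB2*, an accessory subunit of the membrane arm, rose from 9.66, 11.6 and 8.32 TPM to 17.6, 17.7, 20.2 and 19.5 TPM (log2 fold change 0.87 ± 0.15 SE, adjusted *p* = 0.00194, limma), and 35.9% of its exon bases lie under other genes, mostly on the opposite strand. *SDHC* rose from 14.4, 16.9 and 14.9 TPM to 24.6, 19.4, 26.2 and 28.3 TPM (log2 fold change 0.63 ± 0.16 SE, adjusted *p* = 0.0103, limma). *NDUFB4*, an accessory subunit with 12 named pseudogenes, fell from 340 ± 28.4 (SD, n = 3) to 259 ± 29.6 TPM (n = 4, log2 fold change -0.39, adjusted *p* = 0.031, limma), a call also lost without any 1 library but treated replicate 2 (adjusted *p* = 0.0595 to 0.113, limma). Of the core subunits, *NDUFS1*, *NDUFS3*, *NDUFS7*, *NDUFS8*, *NDUFV1* and *NDUFV2* had log2 fold changes of -0.27 to 0.38 and did not pass the test, nor did *SDHA* (0.05), *SDHB* (0.21) or *SDHD* (0.10). *NDUFA4* was higher in every treated library, at 108, 107 and 114 against 121, 129, 148 and 158 TPM, and missed the threshold (log2 fold change 0.33 ± 0.12 SE, adjusted *p* = 0.0537, limma), but passed it without treated replicate 1 or 2 (adjusted *p* = 0.0356 and 0.0324, limma).

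Whether a change differed between H82 and H146 was tested by the line-by-treatment interaction in limma, given as the log2 fold change in H146 minus that in H82. Of 62 members tested, the difference passed the threshold below 0 for 42 and above 0 for 7. Of all 23676 genes tested, 13.7% passed it below 0 and 46.5% above. By sign alone, 48 of the members were below 0 and 14 above. The members' median difference was -0.93, against 0.73 over all genes. Without treated H82 replicate 2, 38 members passed the threshold below and 7 above 0, against 12.4% and 45.1% of all genes. By complex, 24 of 37 subunits of complex I and 1 of 4 of complex II passed the threshold below 0. So did 6 of 8 of complex III and 11 of 13 of complex IV. Under each of the 23 alternatives 34 of the 42 stayed past it, against 1 of the 7 above 0.

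Across the 2 lines, 7 members rose in H82 and fell in H146, namely *NDUFB4*, *NDUFB9*, *UQCRH*, *COX5A*, *COX5B*, *COX6A1* and *COX7B*. All 7 have named pseudogenes in the annotation, from 2 to 12 each, against 36 of all 63 members. In group means, the copies listed were at most 0.0206%, 0.0647% and 1.51% of the gene for *UQCRH*, *COX5A* and *COX7B*. For *COX6A1* they were 18.7% to 51.2%, and no copy is listed for *NDUFB4*, *NDUFB9* or *COX5B*. Of the members without a named pseudogene, 16 of 26 tested rose and 4 fell in H82, at a median log2 fold change of 0.82. In H146, 2 of 23 such members rose and 1 fell, at a median of 0.13. The part of pseudogenes in these calls was not tested. The largest differences among the 7 were in *NDUFB9*, *COX5B* and *COX6A1*. *NDUFB9* was at 103, 106 and 115 TPM in untreated and 88.5, 84, 81.9 and 78.9 TPM in treated H146 (log2 fold change -0.37, adjusted *p* = 0.0163, limma), and its difference between the lines was -2.39 ± 0.16 SE (adjusted *p* = 3.97e-07, limma). The differences of *COX5B* and *COX6A1* were -2.37 ± 0.19 SE and -2.26 ± 0.21 SE (adjusted *p* = 1.75e-06 and 3.69e-06, limma). For all 3, untreated H82 was the lowest group and treated H82 the highest in mean. The H146 fall of *NDUFB9* was lost without untreated replicate 2 or 3 (adjusted *p* = 0.0545 and 0.0595, limma), and the H82 rise of *NDUFB4* without untreated replicate 3 (adjusted *p* = 0.0543, limma).

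Another 5 members, *NDUFA3*, *NDUFS5*, *UQCR10*, *UQCR11* and *COX6C*, rose in both lines, and 33 rose in H82 with no call in H146. No member fell in both. The 3 *COX6C* pseudogenes listed summed to 22.9 to 26.6 TPM in untreated and 0 to 2.35 TPM in treated H82. *COX6C* itself went the other way there, from a mean of 43.8 to 112 TPM, so its H82 value is uncertain, as for *NDUFV2*. Of the 7 differences past the threshold above 0, those of *COX4I2*, *COX7A1* and *NDUFA7* (2.95, 2.13 and 1.16) were of genes below the filter in H146. They restate the H82 falls of these genes (-2.97, -2.13 and -1.05) with the sign turned and show no difference in response between the lines. *SDHC* had a difference of 0.68 (adjusted *p* = 0.0429, limma), which turned to -0.11 under median-of-ratios scaling. The others, *NDUFA13*, *NDUFA11* and *NDUFA9*, passed the filter in both lines. Their differences were 1.29, 0.93 and 0.76 (adjusted *p* = 0.00288, 0.0283 and 0.016, limma). None of these stayed past the threshold under every alternative.

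The subunits of the same complexes that mitochondrial DNA encodes were set beside the nuclear ones. In H82, 4 of 13 mitochondrially encoded subunits, complex V included, fell and 0 rose (limma, 0 also at an unadjusted *p* under 0.05), at a median log2 fold change of -0.54, which was -0.71 to -0.04 over the alternatives but 0.07 with centring by length. That share of 30.8% lower is below the 45.5% of all genes, and the median is close to that of all genes (-0.56). From 1 (no filter, median-of-ratios scaling or replicate block) to 7 (without treated replicate 1) fell over the alternatives, with 2 without treated replicate 2. *MT-ND4L* was at 7037, 7595 and 6690 TPM without and 2421, 2776 and 3043 TPM with treatment (log2 fold change -1.38, adjusted *p* = 0.00432, limma). In H146, 2 of 13 rose (0 to 5 over the alternatives), with *MT-ND1* at 1710, 2438 and 1358 TPM without and 7849, 3445, 4837 and 2861 TPM with treatment (log2 fold change 1.30, adjusted *p* = 0.0154, limma). Mitochondrial transcripts varied widely among the treated H146 libraries.

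For complex I, the mitochondrially encoded sum per unit of nuclear sum was 19.9 to 25 in untreated H82 and 3.5 to 5.28 in treated H82, against 3.3 to 5.06 in untreated and 2.61 to 8.04 in treated H146. For complex IV the ratio was 48.4 to 58.8 and 11.4 to 17.3 in H82 and 4.02 to 7.15 and 4 to 12.7 in H146, and for complex III 7.68 to 9.18 and 2.12 to 3.14 in H82 and 1.34 to 2.38 and 1.23 to 4.1 in H146. In H82 the groups did not overlap in any of these complexes, and in H146 they overlapped in each. These ratios were not tested.

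**Figure D5:**
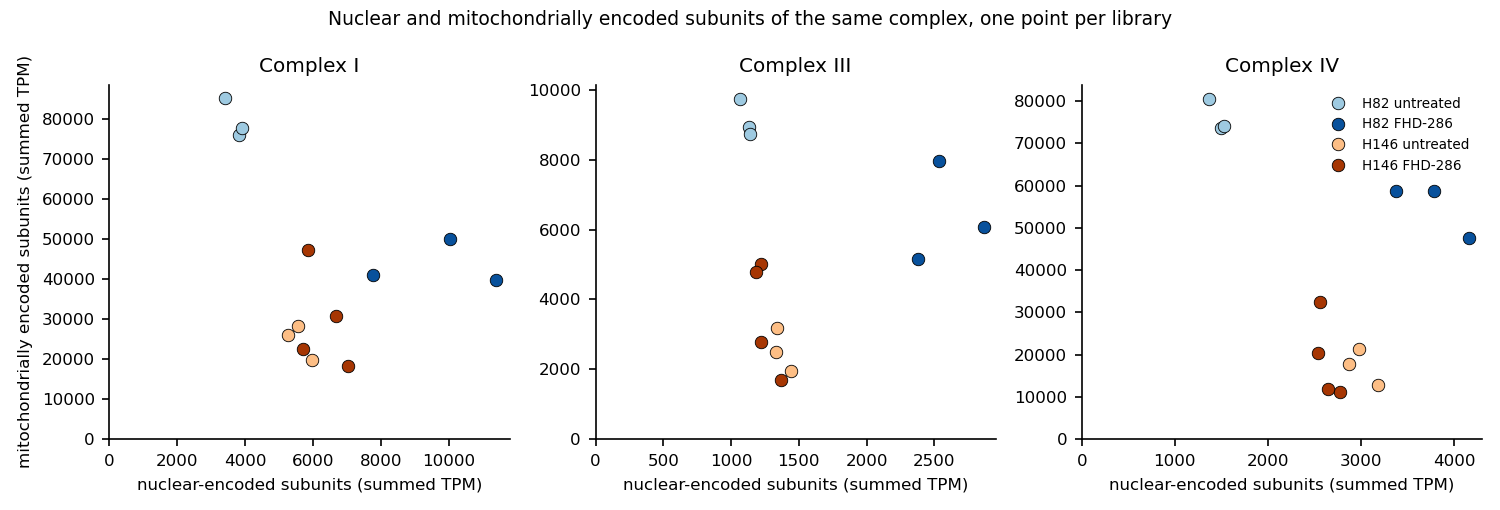
Summed TPM of mitochondrially encoded subunits (y axis) against nuclear-encoded subunits (x axis) of complexes I, III and IV, with 1 point per library, coloured by line and treatment, on linear axes from 0. Untreated H82 libraries lie at upper left and treated H82 libraries at lower right of them, and for complex I the ratio goes from 19.9 to 25 down to 3.5 to 5.28.

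Other genes of the pathway were taken from lists by function, to be read against the 13.1% higher and 45.5% lower of all genes in H82 and the 32.5% and 15.5% in H146. Of 19 complex V genes, 17 rose and 0 fell in H82 (limma, 0 lower at an unadjusted *p* under 0.05, median log2 fold change 1.01), led by *ATP5H*, the d subunit of the stalk, from 41.4, 40.5 and 42 TPM to 149, 178 and 147 TPM (log2 fold change 1.90, adjusted *p* = 0.000139, limma). In H146, 1 of 19 rose, *ATP5G1*, a c-ring gene (log2 fold change 1.25, adjusted *p* = 0.00465, limma), and 0 fell (2 at an unadjusted *p* under 0.05), at a median of -0.03, while 10 fell under median-of-ratios scaling. Cytochrome c1 (*CYC1*), a complex III subunit whose symbol lies outside the rule, was at 194, 162 and 215 TPM without and 850, 888 and 775 TPM with treatment in H82 (log2 fold change 2.14, adjusted *p* = 0.000175, limma), and its H146 value was 0.39 on the log2 scale (adjusted *p* = 0.0572, limma). *CYCS*, cytochrome c, rose in both lines, by 0.58 and 0.54 on the log2 scale. Of the 5 carriers and subunits outside the rule that were tested, 4 rose and 1 fell in H82, and 1 rose and 1 fell in H146. The falls were *NDUFA4L2* in H82 (-1.08, adjusted *p* = 0.0403, limma) and *UQCRHL* in H146 (-0.45, adjusted *p* = 0.026, limma). *UQCRHL* rose in H82 (1.04, adjusted *p* = 0.00385, limma).

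Assembly factors build the complexes but do not stay in them. In H82, 18 of 47 rose and 7 fell (38.3% and 14.9%; 14 to 29 and 1 to 8 over the alternatives, with 29 and 2 under median-of-ratios scaling), at a median log2 fold change of 0.26, with *C17orf89*, a complex I assembly factor, at the top (2.35, adjusted *p* = 0.000764, limma) and *COX20*, a chaperone of the COX2 subunit, at the bottom (-1.70, adjusted *p* = 0.000618, limma). In H146, 11 of 47 rose and 5 fell (23.4% and 10.6%; 4 to 25 and 4 to 12 over the alternatives), from *NDUFAF1* (0.96, adjusted *p* = 0.00368, limma) to *NDUFAF4* (-1.01, adjusted *p* = 0.00115, limma), both complex I assembly factors, and the median of 0.15 turned to -0.16 under median-of-ratios scaling. Of 17 regulators of mitochondrial biogenesis tested, 2 rose and 6 fell in H82 (11.8% and 35.3%) and 4 rose and 2 fell in H146 (23.5% and 11.8%), each share below that of all genes.

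Among those regulators, *GABPA*, the DNA-binding subunit of the ETS factor named above, fell in H82 from 45, 52.9 and 45.9 TPM to 18.8, 27.5 and 29.3 TPM (log2 fold change -0.92, adjusted *p* = 0.00603, limma). *POLRMT*, the mitochondrial RNA polymerase, had the largest rise there (0.80, adjusted *p* = 0.0187, limma). *ESRRA*, the oestrogen-related receptor alpha, a nuclear receptor of oxidative metabolism genes, was at 124 to 148 TPM in untreated and 85.3, 60, 76.9 and 80.5 TPM in treated H146 (log2 fold change -0.88, adjusted *p* = 0.00178, limma), and rose in H82 (0.76, adjusted *p* = 0.0137, limma). *ESRRG*, its relative, had the largest rise in H146 (1.39, adjusted *p* = 0.00317, limma). *YY1* fell in H82, from 79.5, 80.1 and 80.7 TPM to 31.6, 54.2 and 54.4 TPM (log2 fold change -0.81, adjusted *p* = 0.0182, limma), and its H146 value was 0.21 on the log2 scale (adjusted *p* = 0.199, limma). *NRF1* itself did not pass the test in either line, with log2 fold changes of -0.56 and 0.00.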

How the data were processed

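RNA was measured in 13 libraries of H82 and H146 cells. The authors mapped reads to hg38 with STAR and the GENCODE annotation and deposited TPM values per gene, 1 table per line. The submitters' processing notes also name Trim Galore 0.4.4 and DESeq2. The counts, the gene lengths behind the TPM, the strand setting and the depth per library were not used here, so no interval from counts is given, and a short gene or one that shares exons is affected by choices that are not stated. Groups come from the labels.

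Each line was fitted in R 4.3.3 with limma 3.58.1 (eBayes with trend) on log2(TPM + 1), keeping each gene that reached 1 TPM in 3 or more of its libraries. Such fold changes understate those of low genes. The interaction was fitted over all 13 libraries and the genes that passed in either line. Overlap, pseudogenes and exon lengths came from GENCODE release 44 (all 63 members matched), a later release than that of the authors' counts. Promoters were read from RefSeq on GRCh38.p14. The pipeline was tested on simulated data. Python 3.11.15 with pandas 2.3.3 prepared tables and matplotlib 3.10.9 the plots.

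The members, gene lists and tests were chosen with earlier results of these data known. The lists cover complex V, carriers, assembly factors, regulators of mitochondrial biogenesis, mitochondrially encoded subunits and cell markers. Named members are the largest rise and fall past the threshold with no overlap of libraries in each complex and line, the core and isoform subunits, and the 3 largest line differences among members with opposite calls. The values of 1 core member are not reported here, though it is in the counts. Other members and genes were named after their values were seen. Alternatives were a pseudocount of 0.1, no filter, a mean TPM above 2, median-of-ratios or quantile scaling, mitochondrially encoded genes left out of the total, centring in 20 length bins, eBayes without trend, library weights (statmod 1.5.0), a replicate block, and each library left out.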

Additional observations from a re-analysis of the deposited data

Results flagged for a closer look

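In the treated H146 libraries, *UQCRC1* was at 216, 244, 218 and 220 TPM, and the highest, 244 TPM in replicate 2, stood apart from the other 3 beyond the 95% limit for groups of 4, a limit that chance passes in about 1 of 20 groups.

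The interaction of line and treatment passed in limma, at an adjusted *p* under 0.05, for 22 named members. Given as the log2 fold change in H146 minus that in H82, complex I differences were -2.39 for *NDUFB9*, -1.83 for *NDUFB7*, -1.31 for *NDUFB4*, -0.99 for *NDUFA4*, -0.85 for *NDUFS8* and -0.47 for *NDUFV1*. In complex II they were -0.74 for *SDHB* and 0.68 for *SDHC*. In complex III they were -2.30 for *UQCRQ*, -1.69 for *UQCRH*, -1.36 for *UQCRFS1* and -1.34 for *UQCRC1*. In complex IV they were -2.37 for *COX5B*, -2.26 for *COX6A1*, -2.10 for *COX8A*, -1.76 for *COX5A*, -1.61 for *COX4I1*, -1.53 for *COX7A2*, -1.23 for *COX7A2L* and -0.95 for *COX6C*, with 2.13 for *COX7A1* and 2.95 for *COX4I2*. *COX7A1* and *COX4I2* did not pass the filter in H146, so their values restate the H82 falls and show no difference in response. The difference of *SDHB* was lost without H82 untreated replicate 3, H82 treated replicate 2 or 3, or H146 untreated replicate 3 (adjusted *p* = 0.0504 to 0.0561, limma), and that of *SDHC* without any library other than H82 treated replicate 2 or 3, H146 untreated replicate 2 or H146 treated replicate 2 (adjusted *p* = 0.0635 to 0.0971, limma). That of *NDUFV1* was lost under quantile scaling, with mitochondrially encoded genes left out of the total and with the replicate block, and that of *COX7A1* with centring by length.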

How the results depend on the processing

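Reads per library are not known here, so the spread between 3 or 4 libraries sets what could be called. Exon lengths were found for 14278 of 19770 genes in H82 and 14711 of 19585 in H146, too few for a check of length over all genes, so the centring by length is void as such and is given as a setting only, with genes of no known length in a bin of their own. In H82 the members' median log2 fold change was 1.55 under median-of-ratios scaling and 0.92 with mitochondrially encoded genes left out of the total, and 3 members fell under quantile scaling. Leaving out 1 library gave 40 to 48 higher, 3 to 5 lower (3 without any single untreated library, when 60 members were tested) and medians of 0.93 to 1.23. In H146 the members higher and lower numbered 5 and 5 with no filter, 3 and 19 under median-of-ratios scaling (median -0.22), 5 and 13 with centring by length (median -0.06), 5 and 5 without the trend and 24 and 15 with library weights, and the median was 0.00 under quantile scaling. Leaving out 1 library there gave 4 to 12 higher, 4 to 10 lower and medians of 0.05 to 0.11. It was 4 and 5 without untreated replicate 1, 4 and 4 without untreated replicate 2, 5 and 4 without untreated replicate 3, 8 and 5 without treated replicate 1, and 4 and 5 without treated replicate 3 or 4. For the difference between the lines, members past the threshold above 0 numbered 3 under median-of-ratios scaling (median -1.74). They numbered 2 under quantile scaling and 4 with centring by length (median -1.12). Leaving out 1 library gave 4 to 9 such members above 0, with 4 without H82 untreated replicate 1 or 3. It gave 38 to 44 past the threshold below 0, at medians of -1.06 to -0.78. The causes of these changes were not tested.

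Of 1636 values of single named members under the alternatives, 1522 kept direction and side of the threshold or had no call on either side, 58 lost the call, 52 gained it and 4 turned. The latter were *NDUFS7* in H82 under quantile scaling (0.70), the line difference of *SDHC* under median-of-ratios scaling (-0.11), and that of *NDUFS1*, which had no call as reported, under median-of-ratios scaling (-0.59) and with centring by length (-0.79).

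The labels number replicates in both groups of a line, but same-numbered libraries did not deviate together, with correlations of 0.03, 0.01 and -0.04 in H82 and -0.11, -0.06 and 0.01 in H146, so the numbers were not used as pairs. With the replicate number as a block, 44 members rose and 5 fell in H82 (median 1.07). In H146, 3 rose and 3 fell (median 0.05). Line differences past the threshold were 6 above and 40 below 0.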

Other observations

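Genes for ribosomal proteins were set beside the subunits, as 2 lists added after the data had been seen and chosen by symbol. Their counts are to be read against the shares of all genes. These were 13.1% higher and 45.5% lower in H82, and 32.5% and 15.5% in H146. Of 75 mitochondrial ribosomal protein genes tested, which make the ribosome that translates mitochondrially encoded subunits, 47 rose and 1 fell in H82, at a median log2 fold change of 0.70, with *MRPL24* at the top (1.88) and *MRPS25* falling (-0.51). In H146, 13 rose and 7 fell, at a median of 0.09, from *MRPL28* (1.60) to *MRPL48* (-1.26). Of 80 cytosolic ribosomal protein genes, 18 rose and 3 fell in H82, at a median of 0.53, with *RPS21* at 1.56. The largest fall there, in *RPL36A* (adjusted *p* = 0.00211, limma), was larger in size than the rise of *RPS21*. In H146, 3 rose and 22 fell, at a median of -0.32, with *RPLP1* at -0.87. *RPL36A* had the largest rise of the list in H146 (0.98, adjusted *p* = 0.00359, limma). Over the alternatives the H82 medians ran from 0.55 to 1.19 for the mitochondrial and from 0.09 to 1.02 for the cytosolic list. In H146 they ran from -0.22 to 0.21 for the mitochondrial list, so its direction turned, with 6 higher and 30 lower under median-of-ratios scaling, and from -0.64 to -0.19 for the cytosolic list. Without treated H82 replicate 2, 37 mitochondrial and 13 cytosolic ribosomal protein genes rose in H82, where 9.03% of all genes tested rose without that library.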
